A study of Mus musculus with 6 samples.

Results

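The 10 genes described here supply, handle and assemble actin: the monomer-binding thymosins Tmsb4x and Tmsb10, profilin (Pfn1), cofilin (Cfl1), the cytoplasmic actins Actb and Actg1, the Arp2/3 complex subunits Arpc1b, Arpc2 and Arpc3, and the coronin Coro1a. They were chosen by name from the 26216 gene names in the files, with earlier results of these data known. Each has 1 row in every sample. RNA was sequenced from hematopoietic stem cells (HSCs) of mouse bone marrow with the long-term and short-term HSC phenotype (lineage-negative, Annexin-V-negative, sca1+, c-kit+, CD150+ and CD48-). The cells came from mixed chimeras: lethally irradiated recipients carrying both CD45 alleles had received equal numbers of lineage-negative sca1+ c-kit+ cells from Ltbr-/- donors (CD45.2) and from Ly5.1 donors (CD45.1, intact Ltbr), and the HSCs of each donor were sorted 6 weeks later. Ltbr encodes the lymphotoxin beta receptor, which binds the TNF superfamily ligands lymphotoxin and LIGHT.

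The 3 Ltbr-/- replicates had donors of 13 weeks, 10 weeks and 10 to 13 weeks of age, and the 3 Ly5.1 replicates donors of 7 to 13 weeks each. Cells of 6 chimeras had been pooled to 3 replicates, so each value is a pool. The groups differ in CD45 allele as well as in Ltbr, and their donor ages overlap only in part, so that allele, age and Ltbr genotype cannot be told apart. Both had passed through irradiation-conditioned hosts.

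The values are signals on a linear scale that behave as 2 to the power of the regularized log value, a shrunken log2 of normalized reads. The files hold no counts, and the study's methods give the number of reads only as an average over the samples, so no depth stands behind a single value. Log2 values of any pair of samples correlated between 0.992 and 0.998. The summed signal was 12974106 to 13281050 in Ltbr-/- samples and 11689052 to 11983000 in Ly5.1 samples, with similar medians (14.3 to 14.4 and 14.4 to 14.5). Ltbr itself was at 24.2, 26.4 and 23.1 in the Ltbr-/- samples and at 564, 549 and 522 in the Ly5.1 samples (log2 fold change -4.47, SE 0.08): low in every sample labelled Ltbr-/- and high in every sample labelled Ly5.1.

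Actin cycles between monomers and filaments. Beta-thymosins hold monomers in reserve, profilin recharges monomers and delivers them to growing filament ends, and cofilin severs old filaments and returns their subunits to the pool. The Arp2/3 complex starts new filaments as branches on existing ones when WASP and WAVE family proteins activate it, and coronins bind filaments and act on both Arp2/3 and cofilin. In HSCs this machinery serves adhesion to the niche, migration and cell division.

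Tmsb4x lies on chromosome X (167207093 to 167213479, GRCm38.p6) and Tmsb10 on chromosome 6 (72957347 to 72958748). Within the coding sequence, a read can be assigned to 1 of these paralogs only through the bases that differ. Their coding sequences are shown because the paralogs gave different results below. Both are from GENCODE M21 (GRCm38, minus strand, chrX:167207501-167208036 and chr6:72957618-72958012, introns removed), written 5′ to 3′ with the bases that differ between them in capitals.
Tmsb4x: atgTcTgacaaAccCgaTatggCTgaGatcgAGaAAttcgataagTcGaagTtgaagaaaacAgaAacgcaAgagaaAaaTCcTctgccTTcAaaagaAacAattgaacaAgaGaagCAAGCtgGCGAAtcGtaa
Tmsb10: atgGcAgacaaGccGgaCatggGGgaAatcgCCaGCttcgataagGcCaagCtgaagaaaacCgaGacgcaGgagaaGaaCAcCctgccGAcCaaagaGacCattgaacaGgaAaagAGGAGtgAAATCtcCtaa
The coding sequences are 135 bases long, within longest protein-coding transcripts of 864 bases (Tmsb4x) and 690 bases (Tmsb10). The 2 coding sequences are identical at 95 positions (70.4%), with no identical run longer than 10 bases. No stretch of 76 bases, the length of the reads, was shared between the Tmsb4x transcript and any transcript of another gene on either strand, while 32.4% of such stretches of Tmsb10 also occurred in other genes, the predicted genes Gm9844 and Gm3788.

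Of the 10 genes, 7 were higher in Ltbr-/- than in Ly5.1 HSCs at an adjusted p under 0.05 (limma, Benjamini-Hochberg adjustment over all 13108 genes tested), and none was lower. Over all genes tested, 10.6% were higher and 4.18% lower by this criterion; among the tenth of them with the highest mean level, where 9 of the 10 genes lie, the shares were 31% and 10.7%. The median log2 fold change of the 10 genes was 0.23, against -0.01 over all genes tested. The count depends on the samples, the spread model and the scaling. It was 4 without Ltbr-/- replicate 2, 4 without Ly5.1 replicate 1 and 2 with a linear model fitted to each gene alone. With the summed signal made equal, 4 of the 10 genes stayed higher and Tmsb10 was lower, with quantile normalization 2 stayed higher and Actb was lower, and with values corrected for transcript length and level none was higher and Actb, Coro1a and Tmsb10 were lower. With ribosomal protein genes as the reference, which moved the median of all genes tested to -0.89, all 10 were lower. In bulk samples such as these, fewer cells of a type and less RNA per cell cannot be told apart.

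Tmsb4x, the main monomer-sequestering peptide of blood cells, changed most of the 10 genes. Its signal was 10567, 10075 and 11491 in the Ltbr-/- samples and 6397, 6933 and 6958 in the Ly5.1 samples. The lowest Ltbr-/- sample lay far above the highest Ly5.1 sample. The means were 10711 ± 718 and 6763 ± 317 (SD, n = 3 each), a log2 fold change of 0.66 (SE 0.07, 95% confidence interval 0.52 to 0.80) or 1.58-fold, with an adjusted p of 8.25e-10 by limma. It was the only one of the 10 past both the adjusted p and a fold of 1.5, where 2.78% of all genes tested passed both criteria, 2.72% higher and 0.061% lower. Tmsb4x is among the genes that the study itself selected as differing in these samples, so its direction here is not independent evidence.

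Tmsb10, the second beta-thymosin and a monomer binder of the same kind, did not pass the test. It was at 749, 733 and 739 in the Ltbr-/- samples and at 845, 696 and 787 in the Ly5.1 samples. The Ltbr-/- values fell inside the Ly5.1 range, and the log2 fold change was -0.06 (95% confidence interval -0.25 to 0.12, limma adjusted p = 0.714). Per kilobase of its longest protein-coding transcript, Tmsb4x had a level of 12397 in Ltbr-/- and 7827 in Ly5.1 samples, against 1073 and 1124 for Tmsb10, so that Tmsb4x was the more abundant thymosin in both groups.

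Pfn1, which exchanges the nucleotide on actin monomers and feeds them to formins, was at 9645, 10041 and 10531 in the Ltbr-/- samples and at 7127, 6925 and 7949 in the Ly5.1 samples. The groups did not overlap. The log2 fold change was 0.46 (SE 0.07, 95% confidence interval 0.32 to 0.60, limma adjusted p = 2.32e-06), a 1.38-fold difference that stayed under the fold criterion. None of its 76-base stretches occurred in another gene. It lies on chromosome 11 (70651844 to 70656799).

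**Figure D1:**
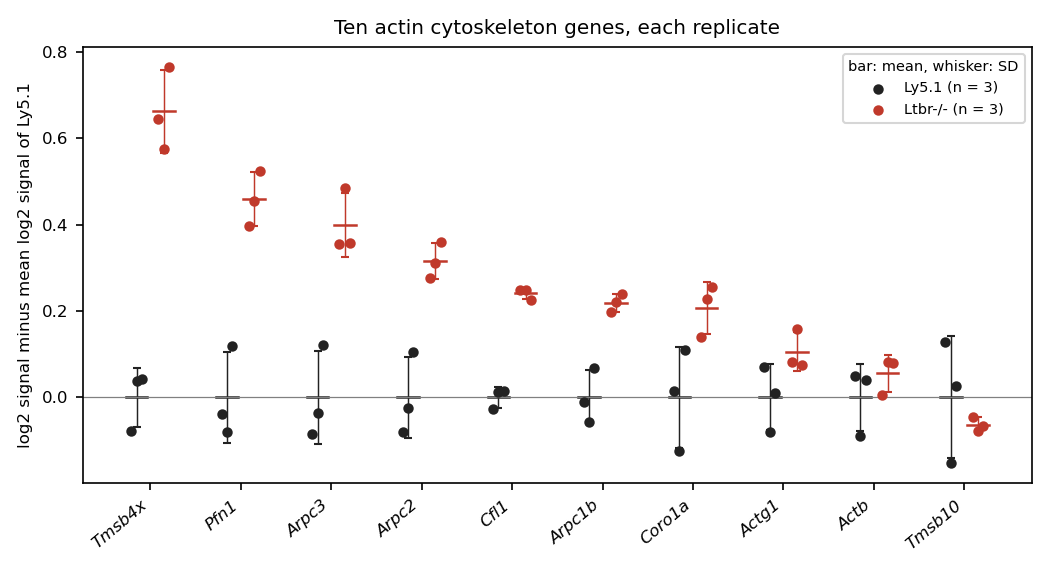
Log2 signal of each of the 10 genes minus its mean log2 signal in Ly5.1 samples, with 1 point per replicate (red for Ltbr-/-, black for Ly5.1, 3 each), a bar at the group mean and a whisker of 1 SD. All Ltbr-/- points lie above all Ly5.1 points for 8 genes, with the widest gap for Tmsb4x, while those of Actb and Tmsb10 overlap; with values corrected for transcript length and level, none of the 10 genes was higher in Ltbr-/- samples.

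The actins themselves differed little. Actb, cytoplasmic beta-actin and the usual reference for expression assays, was at 21700, 22848 and 22833 in the Ltbr-/- samples and at 22354, 20307 and 22213 in the Ly5.1 samples. The ranges overlapped, with a log2 fold change of 0.06 (95% confidence interval -0.06 to 0.17, limma adjusted p = 0.576). Actg1, cytoplasmic gamma-actin, was at 5361, 5646 and 5336 against 5316, 4784 and 5099. The Ltbr-/- values lay above the Ly5.1 values by a narrow margin, and the log2 fold change of 0.11 (95% confidence interval -0.04 to 0.25) did not pass (limma adjusted p = 0.357). The intervals leave room for a difference of up to 0.17 and 0.25 on the log2 scale.

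Per kilobase of transcript, Actb was at 11698 in Ltbr-/- and 11263 in Ly5.1 samples, close to the level of Tmsb4x in Ltbr-/- samples, and Actg1 was at 2791 and 2596. The coding sequences of the 2 actins are identical at 1000 of 1128 positions (88.7%), with runs of up to 62 identical bases, and 54.3% of the 76-base stretches of Actg1 occurred in other genes, mostly processed pseudogenes. How the reads of such stretches were assigned was not given in the sources used here, so the Actg1 values are uncertain. Only 2.49% of the stretches of Actb were shared. Actb lies on chromosome 5 (142903115 to 142907976) and Actg1 on chromosome 11 (120345687 to 120348495).

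Cfl1, the non-muscle cofilin, was at 6017, 6019 and 5926 in the Ltbr-/- samples and at 4969, 5108 and 5118 in the Ly5.1 samples. The samples of each group lay close together and the groups did not overlap. The log2 fold change was 0.24 (SE 0.07, 95% confidence interval 0.10 to 0.38, limma adjusted p = 0.0135), and the call was lost when Ltbr-/- replicate 2 or Ly5.1 replicate 1 was left out (highest adjusted p = 0.0666). Cfl1 lies on chromosome 19 (5490455 to 5494031), and 16.3% of its stretches were shared, most of them with a transcript of its neighbor Snx32.

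All 3 Arp2/3 subunits among the 10 genes were higher in Ltbr-/- HSCs. Arpc3, a small subunit of the complex on chromosome 5 (122391878 to 122406181), was at 4703, 5145 and 4711 against 3467, 3587 and 3998, with a log2 fold change of 0.40 (SE 0.08, limma adjusted p = 0.000151). Arpc2, a core subunit on chromosome 1 (74236490 to 74268209), was at 7509, 7681 and 7949 against 5864, 6089 and 6658, with a log2 fold change of 0.32 (SE 0.07, limma adjusted p = 0.000988). Neither pair of groups overlapped, and both genes passed the test whichever sample was left out.

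Arpc1b, the ARPC1 isoform that predominates in blood cells (chromosome 5, 145114256 to 145128186), was at 5701, 5797 and 5870 against 4936, 4782 and 5211. The groups were apart by a smaller margin, with a log2 fold change of 0.22 (SE 0.07, 95% confidence interval 0.08 to 0.36, limma adjusted p = 0.0299), and the call held in 1 of 6 fits that left out a sample, the one without Ly5.1 replicate 3. A share of 34.2% of its 76-base stretches occurred in other genes, chiefly Pdap1 (28.3%), so its level is also uncertain. Pdap1 was at 1251 ± 11.2 in Ltbr-/- and 1284 ± 91.4 in Ly5.1 samples (SD, n = 3 each).

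Among the other 7 subunits, 1 passed the test. Arpc1a, the alternative ARPC1 isoform, was at 1493 ± 163 in Ltbr-/- and 1239 ± 72.6 in Ly5.1 samples (SD, n = 3; log2 fold change 0.27, limma adjusted p = 0.0415). Arpc5l, an isoform of ARPC5, had a log2 fold change of 0.27 that did not pass (limma adjusted p = 0.0781). The remaining subunits were near 0: Actr2 at -0.07 and Actr3 at -0.02, the actin-related proteins for which the complex is named, Arpc4 at -0.05, Arpc5 at 0.06 and Actr3b at 0.07. The genes of this single complex therefore ranged from -0.07 to 0.40 in log2 fold change on the deposited scale, with 4 of 10 past the test. With values corrected for transcript length and level, none of Arpc1a, Arpc1b, Arpc2 and Arpc3 passed (limma adjusted p = 0.549, 0.145, 0.611 and 0.793). Arpc1a also did not pass with an equal summed signal (limma adjusted p = 0.289) or quantile normalization (limma adjusted p = 0.0814).

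Coro1a, the coronin of leukocytes (chromosome 7, 126699774 to 126704816), was at 13431, 14269 and 14548 in the Ltbr-/- samples and at 12306, 11185 and 13148 in the Ly5.1 samples. The lowest Ltbr-/- value was just above the highest Ly5.1 value. The log2 fold change was 0.21 (SE 0.06, 95% confidence interval 0.08 to 0.34, limma adjusted p = 0.0243), and the call held in 2 of 6 fits that left out a sample. The other coronins tested differed in direction. Coro1b, a more widely expressed relative, was higher (4967 ± 93.4 against 3948 ± 231, log2 fold change 0.33, limma adjusted p = 0.00104). Coro7, a coronin of the Golgi apparatus, was lower (3042 ± 176 against 3686 ± 67.5, log2 fold change -0.28, limma adjusted p = 0.00932). With values corrected for transcript length and level, Coro1b did not pass (0.11, limma adjusted p = 0.286) and Coro7 stayed lower (-0.26, limma adjusted p = 0.00492). Coro1c had a log2 fold change of -0.25 that did not pass (limma adjusted p = 0.0803).

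In all, 8 of the 10 genes had every Ltbr-/- value above every Ly5.1 value, where 17% of all genes tested did. With 3 samples against 3, an exact permutation test of a single gene cannot give a p below 0.1, so the calls rest on the spread that limma pools over genes.

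Ratios of genes measured in the same sample do not depend on a single scaling factor per sample, and 11 pairs were compared. They do move with quantile normalization and with the length correction, which treat genes of a sample unequally. The ratio of Tmsb4x to Tmsb10 was 14.1, 13.8 and 15.5 in the Ltbr-/- samples and 7.57, 9.96 and 8.84 in the Ly5.1 samples. Every Ltbr-/- ratio was above every Ly5.1 ratio, and the ratio was 1.65-fold higher on average (log2 difference 0.73, against 0.44 with quantile normalization and 0.49 with the length correction). The ratio of Tmsb4x to Actb was 0.487, 0.441 and 0.503 against 0.286, 0.341 and 0.313, again without overlap (log2 difference 0.61).

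The ratio of Pfn1 to Actb was 0.444, 0.439 and 0.461 against 0.319, 0.341 and 0.358 (log2 difference 0.40), and that of Cfl1 to Actb also did not overlap (log2 difference 0.19). The ratio of Pfn1 to Cfl1 did not overlap either (log2 difference 0.22), but turned to -0.15 with the length correction. Within the Arp2/3 complex, the ratio of Arpc1b to Arpc2 was lower in every Ltbr-/- sample (log2 difference -0.10). It turned to 0.18 with the length correction. The length correction behind the sign changes of this ratio and of Pfn1 to Cfl1 took the longest protein-coding transcript as the length. Other lengths were not tested. The ratios of Arpc3 to Arpc2 (0.08) and Arpc1b to Arpc1a (-0.05) overlapped between the groups. The ratio of Coro1a to Coro1b was lower (-0.12) and that of Coro1a to Coro1c higher (0.45), both without overlap. Actb to Actg1 overlapped (-0.05). For the 8 pairs without overlap the exact two-sided permutation p was 0.1, the smallest that 3 against 3 allows, and 0.138 after Benjamini-Hochberg adjustment over the 11 pairs, so none passed. Such ratios show unequal change of the 2 genes, not which of them changed.

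**Figure D2:**
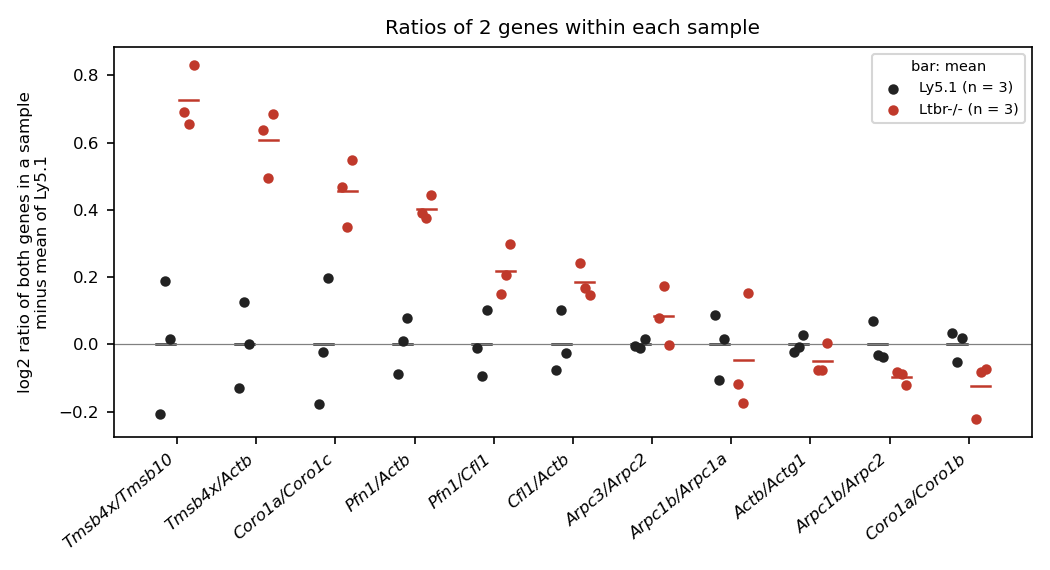
Log2 ratio of 2 genes measured in the same sample minus the mean log2 ratio of the Ly5.1 samples, for the 11 pairs, with 1 point per replicate (red for Ltbr-/-, black for Ly5.1, 3 each) and a bar at the group mean. The groups do not overlap in 8 pairs, with the largest mean difference for Tmsb4x to Tmsb10 (log2 difference 0.73); with the length correction Pfn1 to Cfl1 and Arpc1b to Arpc2 change sign.

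Transcript length moved with the fold changes in these data. Among the tenth of tested genes with the highest mean level, the 91 genes whose longest protein-coding transcript is under 1000 bases had a median log2 fold change of 0.77, and 92.3% were higher at an adjusted p under 0.05. The median was 0.31 for 248 genes of 1000 to 2000 bases, 0.01 for 432 genes of 2000 to 4000 bases and -0.12 for 406 longer genes. Without ribosomal protein genes, the 50 remaining shortest genes had a median of 0.56 and 88% were higher.

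The members with the largest fold changes are short: Tmsb4x has 864 bases, Pfn1 861, Arpc3 899 and Arpc2 1439. Pfn1 and Arpc3 lay below the median of the genes under 1000 bases with or without ribosomal protein genes, and Tmsb4x lay below it with them (0.77) and above it without them (0.56). Arpc1b (3105 bases) and Cfl1 (2354) were above the median of their length class (0.01). Actb (1920), Actg1 (1952) and Coro1a (1747) were below that of theirs (0.31). The class of Arpc1b and Cfl1 rests on the longest transcript. In that transcript, 28.3% of the stretches of Arpc1b were shared with Pdap1 and 14.1% of those of Cfl1 with Snx32. Whether shorter transcripts carry their signal was not tested. Against the median of 0.31, their log2 fold changes (0.22 and 0.24) would be below. Tmsb10, the shortest at 690 bases, is outside the tenth with the highest level, and the median of all 575 tested genes under 1000 bases was 0.17.

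**Figure D3:**
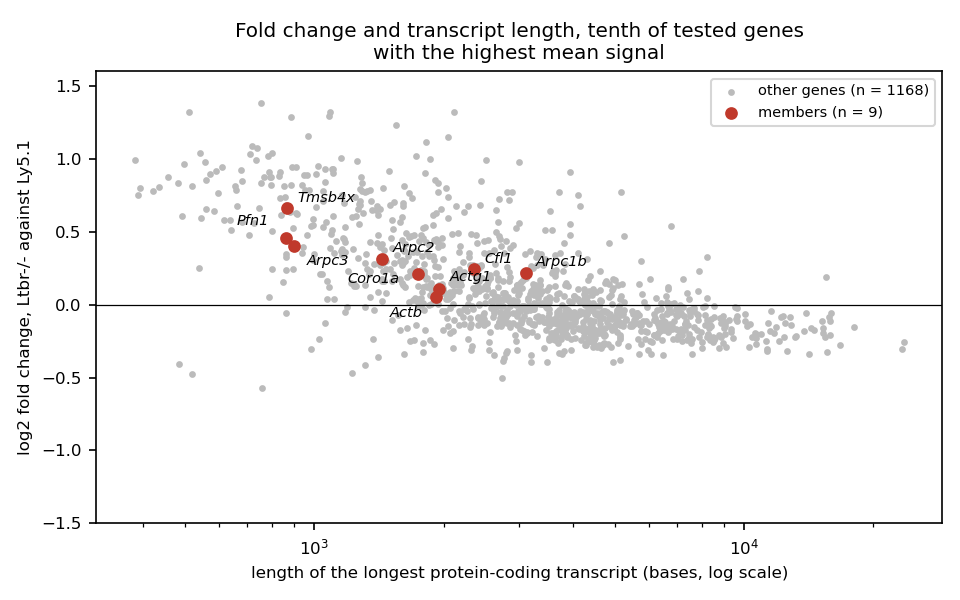
Log2 fold change (Ltbr-/- minus Ly5.1) against the length of the longest protein-coding transcript (bases, log axis) for genes in the tenth of tested genes with the highest mean level, with the 9 members among them marked and 1168 other genes in gray. Short genes have the higher fold changes, and Tmsb4x, Pfn1 and Arpc3 sit inside the cloud of genes under 1000 bases.

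When each sample was corrected by a loess curve for transcript length and mean level, an analysis chosen after the data had been seen, the log2 fold change of Tmsb4x was 0.12 (limma adjusted p = 0.130) and those of Pfn1, Arpc3 and Arpc2 were -0.08, -0.04 and -0.05. Cfl1 was at 0.07 and Arpc1b at 0.13, neither past the test. Both values were computed with the longest transcript taken as the length of these genes. Actb (-0.33), Coro1a (-0.16, limma adjusted p = 0.00605) and Tmsb10 (-0.36, limma adjusted p = 0.00412) were then lower in Ltbr-/- HSCs. In rank among all genes tested, Tmsb4x was at the percentile 83.9 after the correction and at 97.9 before it, and Tmsb10 at 1.06 and 34.2.

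With the summed signal made equal across samples, which shifted the median of all genes to -0.16, the log2 fold changes were 0.51 for Tmsb4x, 0.31 for Pfn1, 0.25 for Arpc3 and 0.16 for Arpc2, all past the test, and -0.22 for Tmsb10 (limma adjusted p = 0.0498). Relative to the median of all genes, the values are those of the deposited scale. Quantile normalization gave 0.36 for Tmsb4x and 0.28 for Arpc3, both past the test, 0.16 for Pfn1 (limma adjusted p = 0.0711) and -0.38 for Actb. Tmsb4x had the highest fold change of the 10 genes under each of these scalings. Under the length correction Arpc1b had the highest, with its longest transcript taken as its length. Actb as a reference gene thus sat at 0.06, -0.10, -0.38 or -0.33 depending on the scaling.

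**Figure D4:**
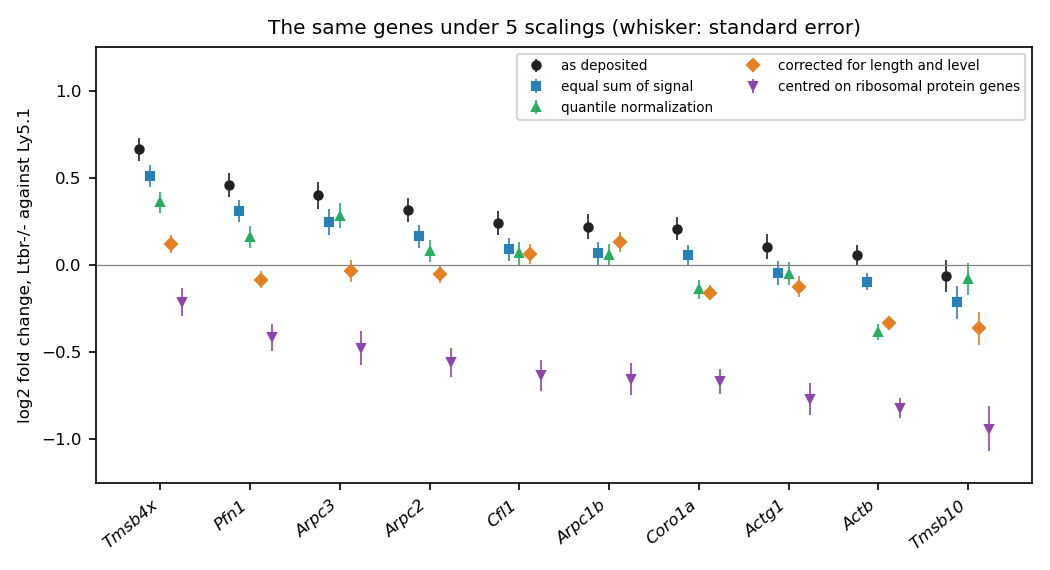
Log2 fold change (Ltbr-/- against Ly5.1) of the 10 genes under 5 scalings: as deposited, with an equal summed signal, with quantile normalization, corrected for transcript length and level, and centered on ribosomal protein genes, each with a whisker of 1 standard error. Tmsb4x goes from 0.66 as deposited to 0.12 with the length correction and -0.21 with the ribosomal reference, under which all 10 genes are below 0.

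The rest of the actin cytoskeleton was read through 11 lists of genes by role, of which 123 of 135 were tested. Without the 10 genes above, 14 of 113 were higher (12.4%) and 9 lower at an adjusted p under 0.05, with a median log2 fold change of -0.05. These shares compare with 10.6% and 4.18% of all genes tested. Of the 14 higher genes, 6 stayed higher with an equal summed signal, 8 with quantile normalization and 7 with the length correction. Of the 9 lower genes, 9, 9 and 7 stayed lower. Among the higher genes named in this report, Arpc1a, Vasp, Tagln2, Myl12a and Myl12b were past the test under none of these scalings.

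The highest values were in genes that cap and sever filaments and in a muscle actin. Capg, which caps the fast-growing filament end, was at 5125 ± 302 against 3199 ± 142 (log2 fold change 0.68, limma adjusted p = 4.69e-09). Gsn (gelsolin), which severs and caps, was at 2671 ± 288 against 1698 ± 110 (log2 fold change 0.65, limma adjusted p = 2.57e-07). Actg2, the smooth muscle gamma-actin, was at 430 ± 13.9 against 266 ± 32.1 (log2 fold change 0.70, limma adjusted p = 6.86e-07). These 3, with transcripts of 1400, 2653 and 1333 bases, were the only listed genes outside the members past both the adjusted p and the fold of 1.5. Scin, another member of the gelsolin family, was higher too (log2 fold change 0.52, limma adjusted p = 7.71e-05), so that 3 of 13 capping and severing genes rose and 1, the filament-capping adducin Add1, fell (-0.29).

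None of the genes whose proteins activate Arp2/3 was higher. Of 15 nucleation-promoting factors, 2 subunits of the WAVE complex were lower: Nckap1l, its hematopoietic form (log2 fold change -0.26, limma adjusted p = 0.0121), and Cyfip1 (-0.24, limma adjusted p = 0.0485). With the length correction Nckap1l stayed lower (-0.24, limma adjusted p = 0.00535) and Cyfip1 did not pass (-0.16, limma adjusted p = 0.222). Abi3 had the highest value of the list (0.15). Was, the Wiskott-Aldrich syndrome protein, was at -0.11 and overlapped between the groups.

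Among 9 monomer-binding genes only Tmsb4x and Pfn1 were past the test, and the lowest was Cap2, a cyclase-associated protein (-0.11). The cofilin list of 12 genes split: Limk2 was higher (0.30, limma adjusted p = 0.0347) and Limk1 lower (-0.30, limma adjusted p = 0.0294), both kinases that inactivate cofilin. Of 12 formins and Ena/VASP proteins, only Vasp, which speeds filament growth, was higher (0.29, limma adjusted p = 0.00724), and Fmnl2 was lowest (-0.21).

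Of 23 cross-linkers and myosin genes, 3 were higher and 2 lower. Tagln2, a filament-binding transgelin, had a log2 fold change of 0.30 and the myosin light chains Myl12a and Myl12b of 0.26 and 0.22, whereas the cross-linkers Flna and Actn4 were at -0.22 and -0.21. Vcl, which links filaments to adhesions, had the lowest value (-0.26). None of the 3 genes of the SRF axis, by which the monomer pool controls transcription of actin genes, passed the test: Srf was at -0.03, Mkl1 at -0.13 and Mkl2 at -0.18. The higher and lower genes of these lists differ in length as well: Flna has 8456 bases and Actn4 3877, against 1586 for Tagln2 and 1937 for Myl12a.

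**Figure D5:**
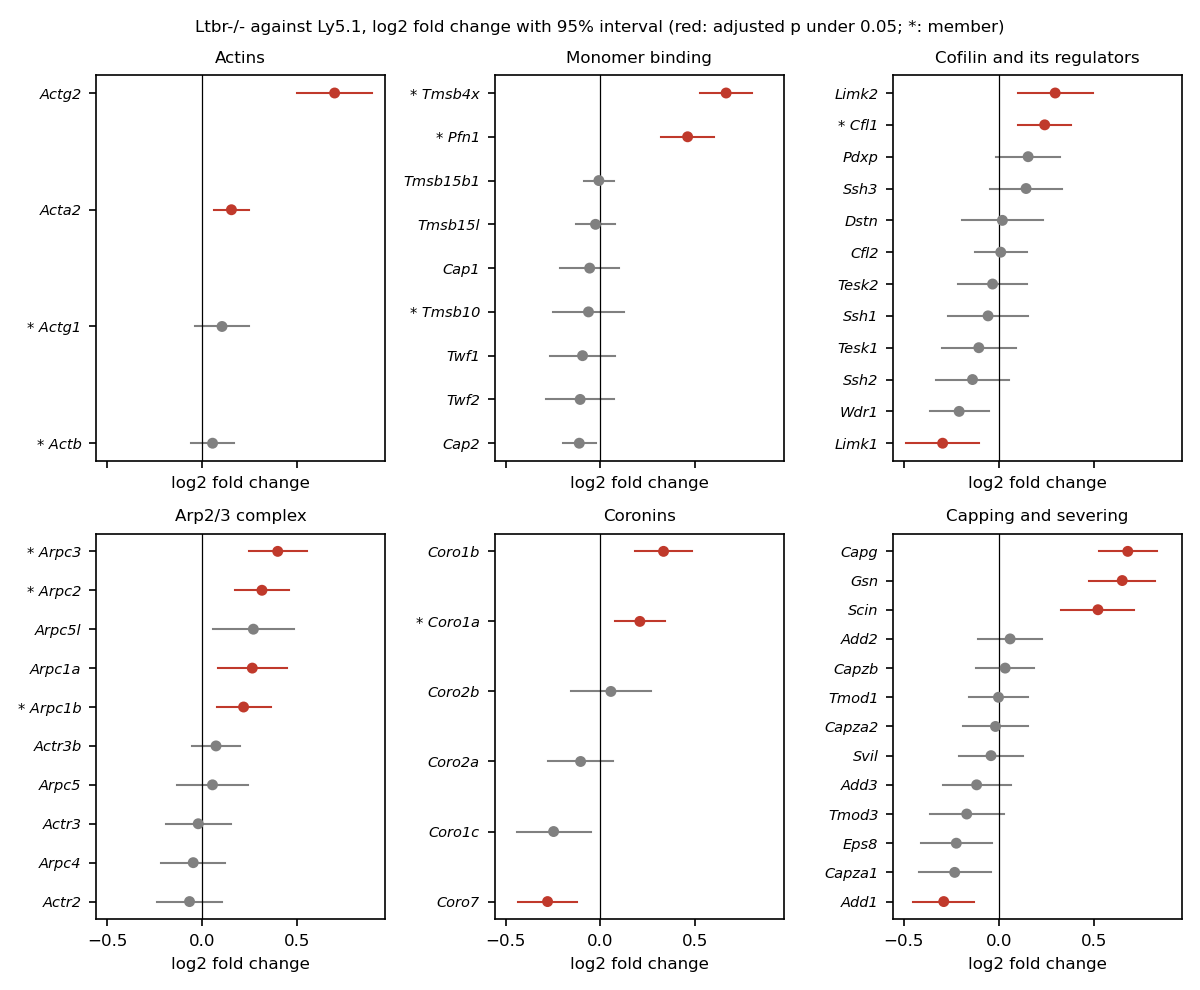
Log2 fold change (Ltbr-/- against Ly5.1) with its 95% confidence interval for the tested genes of 6 of the 11 lists, with 1 row per gene, red for an adjusted p under 0.05 by limma, gray otherwise, and an asterisk at each of the 10 members. On the deposited scaling Actg2, Capg, Tmsb4x and Gsn lie farthest to the right, and the genes of each list lie on both sides of 0 except the actins; with the ribosomal reference Actg2, Capg, Tmsb4x and Gsn are below 0.

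Promoters were searched because SRF, the factor of the axis named above, binds the CArG box in many actin genes. The 250 bases before each start in RefSeq (GRCm38.p6) were searched, with entries for 9 of the 10 genes, all but Actb. The CArG box, whose letters read alike on both strands, was present in the Actg1 promoter and in no other of the 9, against 1.62% of 27025 genes and 7 of 110 actin cytoskeleton genes with an entry (6.36%). The GC box GGGCGG was found on either strand in 7 of the 9 (all but Arpc3 and Cfl1), against 35.4% of all genes and 83 of the 110 actin cytoskeleton genes (75.5%). TATAAA was found in none of them, against 14.3% of all genes and 8 of the 110 (7.27%). By promoter, the shares were 1.47%, 32.7% and 12.4% of 32851. No match of one of these motifs in the 9 genes overlapped a match of another.

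The upstream bases are shown for the gene with the CArG box and for the 2 genes with the highest fold changes, each 5′ to 3′ on the minus strand up to the base before the start (chr11:120348496-120348745, chrX:167209219-167209468 and chr11:70654651-70654900). The stretches of Tmsb4x and Pfn1 lie inside their gene spans, which reach to 167213479 and 70656799, so the starts used for them are internal ones. Capitals mark the CArG box, which starts 90 bases before the start, in Actg1, and the GC boxes in Tmsb4x and Pfn1.
Actg1: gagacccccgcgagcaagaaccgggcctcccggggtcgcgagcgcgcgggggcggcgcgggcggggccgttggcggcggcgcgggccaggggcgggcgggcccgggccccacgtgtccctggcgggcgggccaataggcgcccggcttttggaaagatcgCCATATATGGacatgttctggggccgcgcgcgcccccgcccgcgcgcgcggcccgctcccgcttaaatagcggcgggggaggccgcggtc
Tmsb4x: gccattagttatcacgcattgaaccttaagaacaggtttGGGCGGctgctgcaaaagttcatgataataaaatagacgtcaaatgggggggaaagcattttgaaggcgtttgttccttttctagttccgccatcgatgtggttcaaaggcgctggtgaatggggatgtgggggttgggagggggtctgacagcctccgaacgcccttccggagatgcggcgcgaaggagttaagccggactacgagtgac
Pfn1: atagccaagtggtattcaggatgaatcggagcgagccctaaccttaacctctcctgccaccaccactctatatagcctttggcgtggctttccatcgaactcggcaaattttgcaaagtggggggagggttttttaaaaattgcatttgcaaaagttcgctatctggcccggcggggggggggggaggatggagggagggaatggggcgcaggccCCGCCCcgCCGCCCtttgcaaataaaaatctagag
A match of letters is a description and not a binding site.

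The pattern of Tmsb4x over the 6 samples was most like that of Gm14059, Gm6570 and 1810006K21Rik, measured by the root mean square difference of log2 values centered on each gene's mean (0.032, 0.031 and 0.042). Their log2 fold changes were 0.67, 0.61 and 0.62.

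Actin genes are abundant in many blood cells, so markers of other cells were read beside them. The summed signal of 9 HSC markers was 15107 to 15421 in Ltbr-/- and 17352 to 17737 in Ly5.1 samples, all 9 were present and 3 were lower. Of 10 neutrophil and macrophage markers, 7 were lower and 2, Emr1 and Cd68, higher, with sums of 34776 to 35406 and 44045 to 47552. Among the same 10, Lyz2 was lower (log2 fold change -0.42, limma adjusted p = 8.29e-05) and Csf1r did not pass (-0.27, limma adjusted p = 0.0593). Ly6g, another of the 7 lower, had means near a signal of 20 (18.8 in Ltbr-/- and 20.4 in Ly5.1 samples). Mast cell markers summed to 7065 to 7456 against 3397 to 4002, with Cma1 and Cpa3 higher of 5 tested and Tpsb2 below a signal of 20 in every sample. Most of this sum was Cma1, with a mean of 5470 in Ltbr-/- and 2195 in Ly5.1 samples. Mcpt8, Fcer1a and Ms4a2 had log2 fold changes of -0.22, -0.10 and -0.04, none past the test. The megakaryocyte and platelet list gave 14170 to 14907 against 12041 to 13384, with Itga2b higher and Pf4 lower, and its platelet genes Ppbp, Gp1bb and Tubb1 were below 20. Most of this sum was Itga2b, with a mean of 11640 in Ltbr-/- and 9380 in Ly5.1 samples. It was the only 1 of the 6 tested genes of the list with a log2 fold change above 0 (median -0.11). Erythroid markers summed to 4002 to 4229 against 2851 to 3156, with Hba-a1 higher of 7. Of the B cell genes, Cd79a was higher, and Ms4a1, Pax5 and Vpreb1 were below 20. T and NK cell markers summed to 1035 to 1151 against 1095 to 1219, with Cd3e, Cd3d, Cd3g, Cd4 and Cd8a below 20. None of 5 cell division markers passed the test (25062 to 25989 against 26306 to 26988). The part of these cell types in the values of the 10 genes was not tested.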

How the data were processed

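HSCs of 3 Ltbr-/- and 3 Ly5.1 replicates were compared. Per the labels and the study's methods, RNA was extracted with a micro-column kit, libraries were made with a stranded mRNA kit, and single reads of 76 bases were assembled with SeqMan NGen and quantified with ArrayStar; the submitters' processing notes also name DESeq2 and the builds GRCm38 and mm10. The authors deposited 1 signal per gene name and sample, never negative. Its values fit 2 to the power of the regularized log named in the methods, so the log2 of the deposited signal was tested directly, with no pseudocount. The files hold no counts, and the number of reads is stated only as an average over the samples, so counting error was not computed. Separate cultures or animals behind the samples are known only as pools, so p-values measure the spread between these pools.

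The files hold 26595 rows with 26216 distinct names. Of 75 repeated names the row with the highest mean was kept, none a member. Another 14 names are 5-digit numbers and were assigned to no gene, and 9034 names hold 1 value in all samples. The upper 50% of names by mean (13108) were tested by limma 3.58.1 (lmFit, eBayes with a trend, R 4.3.3), with genotype as the only term and Benjamini-Hochberg adjustment over all of them. Following the study, a gene had to reach an adjusted p below 0.05 and change 1.5-fold or more. The analysis was checked on simulated data. Ratios within samples were compared by exact two-sided permutation tests.

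The members, the lists and the tests were chosen with earlier results of these data known. Genes were named by rule: Ltbr, the members, the other Arp2/3 subunits, the genes of the 11 pairs, in each list the genes past both criteria and the highest and lowest, and the 3 patterns most like that of Tmsb4x. Other listed genes past the adjusted p, and Was, were named after their values were seen. The listed symbols Diaph1 to Diaph3 matched older spellings. The values of 1 of the 11 lists and of 1 marker gene are not reported here.

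Transcript lengths, shared stretches and coding sequences came from GENCODE M21 (longest protein-coding transcript), positions and promoters from RefSeq tables of GRCm38.p6. Alternatives were a replicate block, other filters and scalings, other forms of limma, a pseudocount of 1, summed repeated names, other thresholds and leaving out each sample; the length correction, the ratios under it and under quantile normalization, and the count of members past the adjusted p alone were added after seeing the data.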

Additional observations from a re-analysis of the deposited data

How the results depend on the processing

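The fold changes of the members keep their order of size only in part across scalings, and since the files hold no counts, no limit from depth was computed. Over all genes tested, 364 were past both criteria (356 higher, 8 lower), against 231 with an equal summed signal (204 higher, 27 lower), 12010 with ribosomal protein genes as reference (all lower), 116 with the length correction (96 higher, 20 lower), 1936 by the adjusted p alone (1388 higher, 548 lower) and 42 at a fold of 2 (37 higher, 5 lower); leaving out 1 sample gave 342 to 407. For the members, 1 past both criteria became 0 with quantile normalization, an equal sum, the length correction or a fold of 2, 6 with the ribosomal reference (all lower) and 7 by the adjusted p alone, and stayed 1 whichever sample was left out. The 7 members past the adjusted p alone became 3 with quantile normalization, 3 with the length correction, 5 with an equal sum, 10 with the ribosomal reference, 6 with eBayes without a trend and 2 with a linear model per gene; without Ltbr KO replicate 2 and without Ly5.1 WT replicate 1 there were 4, the lowest of the range 4 to 7. Of the actin lists, 4 genes past both criteria became 0 with an equal sum or a fold of 2, 2 with a linear model per gene, 2 with the length correction, 110 with the ribosomal reference (all lower) and 30 by the adjusted p alone (21 higher, 9 lower), and were 3 to 4 with 1 sample left out.

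The median log2 fold change of the members, 0.23, was 0.0614 with quantile normalization, 0.0780 with an equal sum, -0.64 with the ribosomal reference, -0.0687 with the length correction, and 0.22 to 0.26 with 1 sample left out. With the ribosomal reference, which moves the median of all genes to -0.89, these log2 fold changes turned negative: Tmsb4x -0.21, Pfn1 -0.42, Cfl1 -0.63, Actb -0.82, Actg1 -0.77, Arpc1b -0.66, Arpc2 -0.56, Arpc3 -0.48, Coro1a -0.67, Actr3b -0.80, Arpc1a -0.61, Arpc5 -0.82, Arpc5l -0.60, Actg2 -0.18, Limk2 -0.58, Coro1b -0.54, Abi3 -0.72, Vasp -0.58, Capg -0.20, Tagln2 -0.57, Rhoc -0.48, Gsn -0.23, Gm6570 -0.26, Gm14059 -0.20 and 1810006K21Rik -0.25. The shift itself does that, and relative to the median of all genes they are as on the deposited scale. With the length correction, Pfn1 (-0.0843), Actb (-0.33), Arpc2 (-0.0532), Arpc3 (-0.0369), Coro1a (-0.16) and Tagln2 (-0.0241) turned negative, and with quantile normalization Actb (-0.38) and Coro1a (-0.14). Actg1, past the test under none of these 3 scalings, was at -0.12 with the length correction, -0.05 with quantile normalization and -0.05 with an equal sum, with which Actb was at -0.10; the cause was not tested. Of 1286 values of genes and lists under the alternatives, 143 were weaker, 80 stronger, 33 reversed and 1030 the same. For a gene, weaker is a call lost, stronger a call gained, and reversed a change of sign with a call on either side. A gene that changed sign between 2 values without a call counts as the same. For the count of a list, weaker and stronger are a fall and a rise of more than 1.5-fold.

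Samples with the same replicate number did not deviate together (correlations 0.03, -0.01 and 0.09), so the numbers were not used as pairs. With a replicate block, the count over all genes stayed at 364, and 7 members were past the adjusted p. With 3 samples against 3 no ratio could pass, so its side of the threshold says nothing. With 1 sample left out, Arpc1b to Arpc1a ranged from -0.15 to 0.02. The log2 differences of the ratios moved with quantile normalization and with the length correction, respectively, both chosen after the data had been seen: Tmsb4x to Tmsb10 0.437 and 0.485, Actb to Actg1 -0.335 and -0.210, Tmsb4x to Actb 0.743 and 0.455, Pfn1 to Actb 0.545 and 0.2499, Cfl1 to Actb 0.450 and 0.399, Pfn1 to Cfl1 0.0943 and -0.149, Arpc3 to Arpc2 0.202 and 0.0163, Arpc1b to Arpc2 -0.0242 and 0.184, Coro1a to Coro1b -0.336 and -0.270, and Coro1a to Coro1c 0.122 and 0.0608. Arpc1b to Arpc1a was at -0.175 and 0.0307.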
